A study of Mus musculus with 6 samples.

Results

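The semaphorin, ephrin, Slit and netrin families and their receptors were examined in mouse vascular smooth muscle cells labelled wild type or Ncor1-/-. Ncor1 is a corepressor, and its transcript was lower but not absent in the Ncor1-/- libraries. Members were taken by gene symbol, and the choice was made with earlier results of these data known. They were the class 3 to 7 semaphorins (Sema), plexins (Plxn), neuropilins (Nrp), ephrins (Efna and Efnb), Eph receptors (Epha and Ephb), Slit1 to Slit3, Robo1 to Robo3, the netrins (Ntn) and the Unc5 receptors. The rule matched 67 genes of the count table, and 61 of them had at least 1 count, among 23349 genes with any count in all. These 61 were 33 ligands and 28 receptors.

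The cells were cultured from C57BL/6 mice, in 3 wild type libraries (control) and 3 Ncor1-/- libraries (knockout). According to the design text the mice of the knockout arm lack Ncor1 in smooth muscle, the controls were their littermates, and 4-OHT, the active form of tamoxifen, was given to the cultures to delete the gene. The driver of the recombinase and the ages of the mice are not stated. The design text names both 3 mice per arm and technical replicates. A p-value here therefore speaks of variation among libraries, and that variation may be technical.

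Guidance cues were first described for steering growing axons, and the same families shape blood vessels. Semaphorins bind plexins, with neuropilins as co-receptors for most of the secreted class 3 members. Ephrins are held on the cell surface and signal through Eph tyrosine kinases on neighbouring cells, ephrins A mainly through EphA and ephrins B mainly through EphB receptors. Slit proteins bind Robo receptors, and netrins bind Unc5 receptors, Dcc and neogenin. In vessels, ephrin B2 and EphB4 mark arterial and venous endothelium, and Sema3e with plexin D1 patterns intersomitic vessels.

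Depth was 7125538 to 9579490 counts per library. Ncor1 itself stood at 212, 223 and 230 CPM in control and at 99.1, 93.5 and 94.2 CPM in knockout libraries, a 2.32-fold lower level. Reads of Ncor1 thus remained in every knockout library, and their origin was not tested. CPM is the count scaled to library size with TMM factors. Of 10 smooth muscle markers 9 were lower in the knockout, from a summed level of 11522 to 11722 CPM in control to 3908 to 4111 CPM. Of 20 endothelial markers 19 were higher, with sums of 2384 to 2475 CPM in control and 7960 to 8116 CPM in knockout libraries. Macrophage and leukocyte markers were higher in 17 of 18 tested genes, with sums of 57.7 to 79.3 CPM against 691 to 746 CPM. Of 6 tested fibroblast markers 3 were higher and 3 lower (sums of 354 to 383 against 1125 to 1185 CPM), and all 4 tested Schwann and neural markers were lower (322 to 342 against 136 to 139 CPM). None of the markers of these 5 lists found in the table was at 0 counts in all libraries, and 1 listed macrophage marker was not among the table's rows. The part of these cells in the results that follow was not tested. In such bulk libraries, fewer cells of a type and less RNA per cell cannot be told apart.

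Many guidance genes differed between knockout and control cells, in both directions, and both ligands and receptors were among them. The filter on low counts was passed by 49 members, and 21 of these were higher and 21 lower in the knockout at an adjusted p under 0.05 (edgeR's quasi-likelihood test, Benjamini-Hochberg adjusted across 13323 genes). Over all genes tested, 26.4% were higher and 26.2% lower. Among the higher members 9, and among the lower members 12, changed at least 2-fold, against 6.9% and 6.13% of all genes tested. In 43 of the 49 the CPM of the groups did not overlap, against 57.8% of all genes tested. The filter admitted 8 of the 49 through the level of 1 group only, so their group levels had to differ. Sema5a, Slit3, Plxnb1 and Robo2 passed through the control, and Sema4d, Plxnc1, Robo3 and Unc5a through the knockout libraries. None of these 8 overlapped between groups, so all of them are among the 43. The shares over all genes tested were not recounted without such genes. Among the other 41 members 18 were higher and 17 lower, 6 and 8 of them by at least 2-fold. The median log2 fold change, knockout over control, was -0.04 over the 49 members and -0.0039 over all genes tested.

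By role, 11 of 26 tested ligands rose and 11 fell (median -0.07), and 10 of 23 tested receptors rose and 10 fell (median 0.16). Of all genes tested 26.4% rose and 26.2% fell. Whether ligands and receptors differed in these counts was not tested. The medians depended on the processing. That of the receptors was 0.03 without the low-count filter and 0.34 without control replicate 2. Scaled by library totals alone, those of the ligands and of all members were 0.07 and 0.09, beside 0.13 over all genes tested. The FPKM values, fitted with a pseudocount of 1, called 18 members higher and 11 lower, beside 4697 and 2014 of all genes in the same fit. This fit keeps only genes with an FPKM of at least 1 in 3 libraries. It therefore tested fewer members than edgeR, and its counts are not shares of the members tested above. Most families with several tested members held both higher and lower genes, as the plot of fold changes by family shows.

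**Figure D1:**
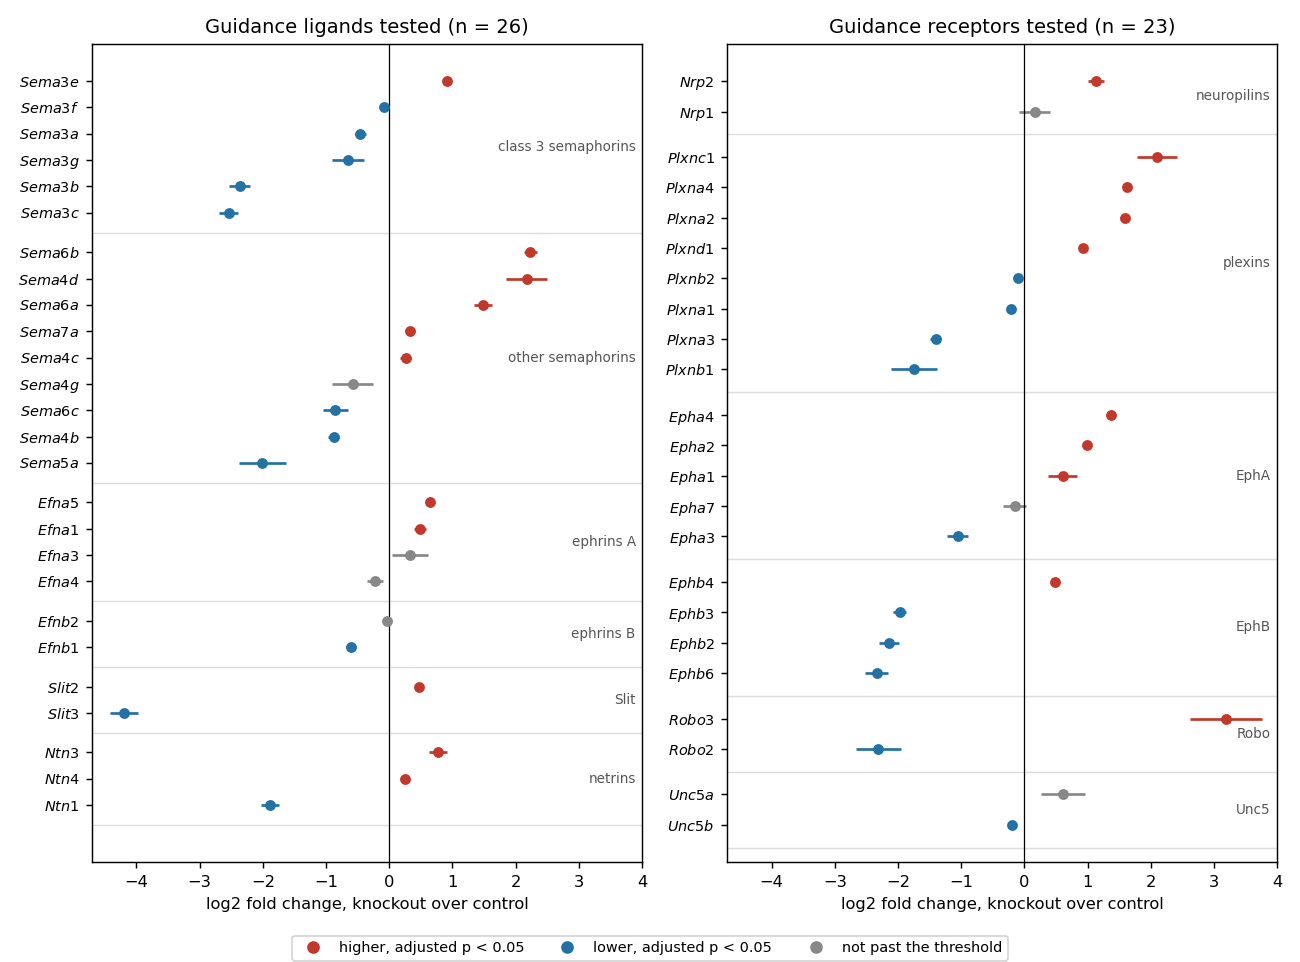
Log2 fold changes (knockout over control) of the 26 tested ligands and 23 tested receptors, with the standard error of the fit as bars, grouped by family and coloured by the test. The largest decrease is Slit3 (-4.19) and the largest increase the low-expressed Robo3 (3.19), while Ephb2, Ephb3 and Ephb6 lie together between -2.34 and -1.98.

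Levels per gene length were read from FPKM, which divides counts by gene length and library total. The 3 members with the highest mean FPKM were Sema3f, a secreted semaphorin that binds neuropilin 2, the netrin receptor Unc5b and the plexin Plxnb2. Sema3f had 87.5 ± 3.46 FPKM in control and 90.2 ± 0.983 FPKM in knockout libraries (mean ± SD, n = 3 per group). Unc5b had 89.2 ± 1.30 and 84.98 ± 2.04 FPKM, and Plxnb2 78.4 ± 3.40 and 79.8 ± 1.78 FPKM. These genes led the order in both groups. In control libraries Sema3f (83.9 to 90.7 FPKM) and Unc5b (87.7 to 90.0 FPKM) overlapped, and Plxnb2 (75.5 to 82.1 FPKM) lay below both. Efnb2 followed with 51.4 ± 1.25 and 54.8 ± 0.987 FPKM, and Plxna1 with 51.9 ± 2.18 and 49.3 ± 1.14 FPKM.

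This order is that of the mean over all 6 libraries, and places below the third differed between groups. Plxna1 went from place 4 in control to 7 in knockout and Efnb2 stood at 5 in both. Epha2 went from place 6 in control to 4 in knockout, Epha4 from 12 to 8, Sema6b from 32 to 16, Plxna4 from 31 to 19 and Plxna2 from 30 to 21. Ephb3 went the other way, from place 17 to 27, and Plxna3 from 21 to 28. Summed over all ligands, FPKM ranged from 278 to 293 in control and reached 327 to 334 in the knockout. Summed over all receptors, it ranged from 330 to 343 in control and reached 422 to 433 in the knockout. FPKM is scaled by library totals, on which the median of all tested genes lay 0.13 higher on the log2 scale.

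**Figure D2:**
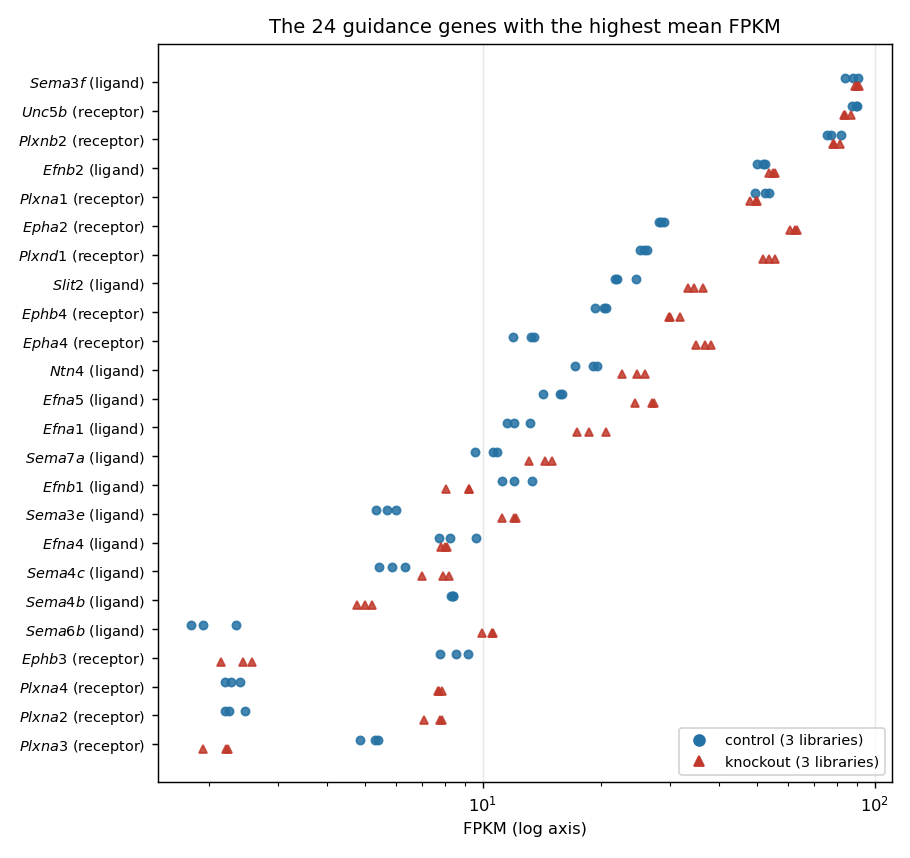
FPKM on a log axis for the 24 guidance genes with the highest mean FPKM, with 1 point per library. The libraries of Sema3f, Unc5b and Plxnb2 lie close together in both groups, while those of Epha2, Plxnd1 and Epha4 lie apart, from 12.9 FPKM in control to 36.7 FPKM in knockout for Epha4.

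Among the ligands, 5 of 6 tested class 3 semaphorins were lower and 1 higher. Of 9 tested semaphorins of the other classes 5 were higher and 3 lower. Over all genes tested, 26.4% were higher and 26.2% lower. The difference between the classes was not tested, and 3 of the 5 lower class 3 calls (Sema3a, Sema3f and Sema3g) were lost under some alternative. Sema3c, a secreted cue required for outflow tract formation in the heart, stood at 20.6, 20.8 and 19.3 CPM in control and at 3.31, 3.49 and 3.57 CPM in knockout libraries. All control libraries lay above all knockout libraries, 5.82-fold by the fitted change (log2 fold change -2.54, SE 0.15, adjusted p = 3.37e-23). Sema3b, first known from a chromosomal region deleted in lung tumours, fell from 17.5, 15.1 and 18.2 CPM to 3.69, 3.63 and 2.68 CPM. Its groups were as far apart, at a log2 fold change of -2.37 (SE 0.162).

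The most abundant member of the class, Sema3f, had 359, 341 and 374 CPM in control and 342, 337 and 332 CPM in knockout libraries. The groups overlapped, and the log2 fold change of -0.09 (adjusted p = 0.0347) lost its call without control replicate 1 (adjusted p = 0.0945) or 3 (0.206) and without knockout replicate 2 (0.094) or 3 (0.143). It turned to 0.04 with library totals alone. Sema3e, the ligand of plexin D1, was the member of its class that rose, from 40.8 ± 2.19 to 77.2 ± 3.62 CPM (n = 3 per group; log2 fold change 0.91, adjusted p = 1.02e-19). Its share of the summed FPKM of the class went from 5.36% ± 0.505 to 10.97% ± 0.328, and that of Sema3f was 82.5% ± 0.603 and 84.0% ± 0.352. Sema3a, a repellent that acts through neuropilin 1, fell by 0.46 on the log2 scale, a call that the 3 FPKM fits did not make (adjusted p = 0.051 to 0.0797). Sema3g, which is made by arterial endothelium, was lower by 0.65 at 3.81 ± 0.584 against 2.37 ± 0.521 CPM. Its call was lost by DESeq2 (adjusted p = 0.174), and also when control replicate 1 (0.0604), control replicate 3 (0.0993) or knockout replicate 1 (0.123) was left out. Sema3d had 4 counts over the control and 14 over the knockout libraries and was not tested.

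The transmembrane class 6 semaphorins Sema6a and Sema6b, which bind class A plexins, were higher. Sema6b stood at 8.59, 7.96 and 10.5 CPM in control and at 42.9, 40.6 and 42.8 CPM in knockout libraries. All knockout libraries lay far above all control libraries, and the fitted change was 4.71-fold (log2 fold change 2.23, SE 0.102, adjusted p = 1.12e-28). Sema6a rose from 5.11, 7.45 and 5.54 CPM to 15.8, 17.6 and 17.2 CPM, without overlap (1.48, SE 0.144). Sema6c, of the same class, went down, from 7.02 ± 1.92 to 3.83 ± 0.107 CPM (-0.85), a call lost in the FPKM fit without a filter (adjusted p = 0.0807). Together Sema6a and Sema6b made up 68.8% ± 4.67 of the FPKM of class 6 in control and 94.3% ± 0.163 in knockout libraries.

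Sema7a, the lipid-anchored semaphorin and the most abundant of those outside class 3 per length, stood at 37.3, 32.5 and 36.6 CPM in control and at 47.1, 41.1 and 44.9 CPM in knockout libraries. The groups did not overlap, at a small change of 0.33 (SE 0.0748). Sema4d, a transmembrane ligand of plexin B1 that is abundant on lymphocytes, had 20 counts over the control and 100 over the knockout libraries (2.17, SE 0.318). The sums of the macrophage and leukocyte markers rose in the same libraries, as given above. Sema4b fell from 35.5 ± 0.082 to 19.4 ± 0.909 CPM, and Sema5a from 60 to 16 counts over the group. Sema4d passed the filter on low counts through the knockout and Sema5a through the control libraries only. Sema4c was higher by 0.26, a call that DESeq2 did not make (adjusted p = 0.0909) and that was lost when control replicate 2 was left out (0.059). Sema4g did not pass the test (-0.58, adjusted p = 0.13), but did without knockout replicate 3 (-0.99, adjusted p = 0.0363). Sema4a and Sema4f had 7 to 16 counts per group and were not tested.

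The plexins, the receptors of these cues, changed in both directions, with 4 of 8 tested members higher and 4 lower. The shares over all genes tested were 26.4% and 26.2%. Plxna4 stood at 31.7, 29.8 and 29.2 CPM in control and at 95.2, 93.4 and 92.0 CPM in knockout libraries. The groups lay far apart, with a log2 fold change of 1.62 (SE 0.0645, adjusted p = 6.43e-32). Plxna2 rose from 25.3, 25.8 and 28.7 CPM to 83.2, 82.3 and 74.2 CPM, 3.00-fold by the fitted change. Both are receptors of Sema6a. Plxna4os1, by its name a gene on the opposite strand of Plxna4, had 3 to 6 counts in each control and 15 to 21 counts in each knockout library. Another antisense gene, Plxna4os3, overlaps 0.78% of the annotated exon bases of Plxna4. Plxna3, a partner of neuropilin 2 in Sema3f signalling, fell from 35.2, 38.3 and 39.5 CPM to 12.9, 14.6 and 14.8 CPM (-1.41, SE 0.0939). Its groups did not overlap.

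Of the summed FPKM of class A plexins, Plxna2 and Plxna4 together held 7.45% ± 0.155 in control and 23.0% ± 0.294 in knockout libraries, and Plxna3 8.40% ± 0.562 and 3.19% ± 0.298. Plxna1 kept the main part, 84.1% ± 0.664 and 73.8% ± 0.0153. It was lower by 0.21 on the log2 scale, with a call that library totals alone ended (-0.07, adjusted p = 0.0634), and 10.7% of its annotated exon bases overlap an antisense gene.

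Plxnd1, the endothelial receptor of Sema3e, rose with its ligand, from 182, 186 and 191 CPM to 369, 355 and 340 CPM (0.93, SE 0.0385, adjusted p = 6.65e-31). Its share of all plexin FPKM went from 15.5% ± 0.593 to 26.8% ± 0.606. The summed endothelial markers rose in the same libraries, as given above. Plxnb2, the most abundant plexin per length, had 561, 513 and 535 CPM in control and 494, 512 and 488 CPM in knockout libraries. The highest knockout library lay just under the lowest control library, the change was -0.11 (adjusted p = 0.00598), it lost its call without control replicate 1 (adjusted p = 0.119), and it turned to 0.02 with library totals alone. Plxnb1, the Sema4d receptor, had 59 counts over the control and 19 over the knockout libraries (-1.75, SE 0.366), and the FPKM fit without a filter did not call it (adjusted p = 0.0581). Plxnc1, the Sema7a receptor, had 21 and 99 counts (2.10, SE 0.314). Plxnb1 passed the filter on low counts through the control and Plxnc1 through the knockout libraries only. Plxnb3 had 4 and 3 counts and was not tested.

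Neuropilins were low in all libraries. Nrp2, which binds Sema3f and Sema3c, stood at 7.90, 7.83 and 8.31 CPM in control and at 17.8, 16.9 and 17.9 CPM in knockout libraries. The groups did not overlap, and the fitted change was 2.20-fold (1.14, SE 0.128, adjusted p = 1.36e-11). Nrp1, the co-receptor of Sema3a and of vascular endothelial growth factor, stood at 2.93 ± 0.581 and 3.32 ± 0.475 CPM and did not pass the test (0.16, adjusted p = 0.608). Per length the sum of both neuropilins was 1.51 to 1.66 FPKM in control and 3.22 to 3.35 FPKM in knockout libraries, against 161 to 170 and 196 to 204 FPKM for the plexins.

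Ephrin and Eph genes changed in both directions. Over ephrins A and EphA receptors 5 of 9 tested genes were higher and 1 lower. Over ephrins B and EphB receptors 1 of 6 was higher and 4 lower. Of all genes tested 26.4% were higher and 26.2% lower, and the difference between the A and B sets was not tested. Of 4 tested ephrins A, 2 were higher and 0 lower at an adjusted p under 0.05 (edgeR; the counts were the same by DESeq2 and at an unadjusted p under 0.05). Efna5 stood at 86.8, 87.0 and 79.1 CPM in control and at 136, 138 and 122 CPM in knockout libraries. Every knockout library was above every control library (log2 fold change 0.64, SE 0.0519, adjusted p = 8.31e-17). Efna1, known as a gene induced by tumour necrosis factor in endothelial cells, rose by 0.48, from 19.0 ± 1.31 to 26.8 ± 2.32 CPM. Efna3 (0.33) and Efna4 (-0.22) did not pass, and their exons overlap antisense genes over 14.1% and 10.5% of bases. Efna2 had 41 counts over the control and 14 over the knockout libraries and was not tested.

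Efnb2, the arterial ephrin and the most abundant one per length, stood at 268, 264 and 258 CPM in control and at 252, 261 and 256 CPM in knockout libraries. The groups overlapped, the test was not passed (-0.04, SE 0.0371, adjusted p = 0.351), and the sign turned with library totals alone (0.09, adjusted p = 0.0336). Efnb1 fell from 41.6 ± 3.95 to 27.5 ± 2.24 CPM (-0.60, SE 0.0817). Efnb3 had 16 counts over the control and 2 over the knockout libraries and was not tested. Ephrins A made up 37.3% ± 0.201 of all ephrin FPKM in control and 46.3% ± 0.896 in knockout libraries.

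Among EphA receptors 3 of 5 tested members were higher and 1 lower, against 26.4% and 26.2% of all genes tested. Epha4, a receptor that also binds ephrins B, stood at 88.5, 89.3 and 80.2 CPM in control and at 234, 225 and 212 CPM in knockout libraries. The groups lay far apart, with a log2 fold change of 1.37 (SE 0.0469, adjusted p = 2.56e-35). Epha2, the main Efna1 receptor of endothelial and epithelial cells and the most abundant Eph gene per length, rose from 119, 115 and 118 CPM to 236, 229 and 237 CPM. The spread within each group was a few CPM (0.99, SE 0.0418, adjusted p = 1.41e-30). Epha3 fell from 10.3, 8.34 and 10.2 CPM to 4.33, 5.51 and 4.16 CPM (-1.06, SE 0.171), without overlap.

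Epha1 was higher by 0.60 at 62 counts over the control and 103 over the knockout libraries. DESeq2 did not call it (adjusted p = 0.195), nor did edgeR when control replicate 2 (0.104), knockout replicate 1 (0.0521) or knockout replicate 3 (0.0882) was dropped, and 6.01% of its exon bases overlap Zyx on the other strand. Epha7 stood at 6.41 ± 0.789 and 5.79 ± 0.698 CPM and did not pass. Epha5 had 5 and 9 counts and was not tested.

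Of 4 tested EphB receptors 3 were lower and 1, Ephb4, higher, against 26.2% lower and 26.4% higher over all genes tested. Ephb3 stood at 37.0, 33.6 and 40.1 CPM in control and at 9.68, 10.2 and 8.43 CPM in knockout libraries. It fell 3.94-fold by the fitted change (log2 fold change -1.98, SE 0.106, adjusted p = 2.58e-25), without overlap. Ephb2, a receptor of ephrins B with roles in axon guidance and gut cell sorting, fell from 18.4, 14.6 and 16.3 CPM to 3.18, 4.03 and 3.87 CPM (-2.15, SE 0.158). Ephb6, a member of the family without kinase activity, fell from 12.4, 12.8 and 13.3 CPM to 2.04, 2.55 and 2.88 CPM (-2.34, SE 0.18). The 3 genes were thus each lower in all knockout libraries than in any control library, by similar factors of 3.94 to 5.07. Ephb1 had 11 and 2 counts and was not tested.

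Ephb4, the venous Eph receptor and the most abundant EphB gene per length, rose instead. It stood at 88.3, 92.4 and 95.0 CPM in control and at 126, 125 and 132 CPM in knockout libraries, without overlap (0.48, SE 0.0488, adjusted p = 4.53e-13). The EphB genes together had 34.1 to 36.2 FPKM in control and 33.8 to 35.5 FPKM in the knockout, so the groups overlapped, while the part of Ephb4 in it went from 57.6% ± 1.77 to 88.9% ± 0.839. The EphA genes together had 44.7 to 46.5 FPKM in control and 101 to 104 FPKM in the knockout. EphA genes held 56.6% ± 1.18 of all Eph FPKM in control and 74.9% ± 0.702 in knockout libraries.

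**Figure D3:**
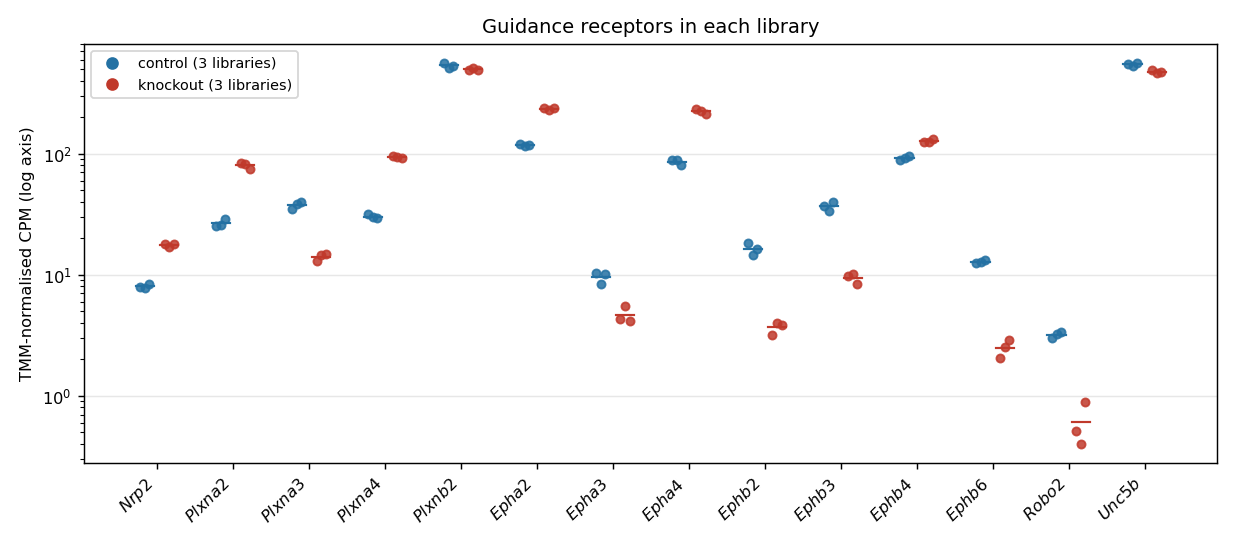
TMM-normalised CPM on a log axis for the named receptors, with 1 point per library and a bar at the mean of each group. Plxna2, Plxna4, Epha2 and Epha4 lie higher and Plxna3, Ephb2, Ephb3 and Ephb6 lower in all 3 knockout libraries, while Plxnb2 and Unc5b differ little between groups.

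The 2 tested Slit genes went apart. Slit3 stood at 15.6, 16.6 and 14.0 CPM in control and at 0.892, 0.806 and 0.793 CPM in knockout libraries, and it passed the filter on low counts through the control libraries only. The fitted change was 18.3-fold (log2 fold change -4.19, SE 0.219, adjusted p = 8.91e-26) and rests on 359 counts over the control and 21 over the knockout libraries. Slit2, the more abundant gene, stood at 187, 183 and 210 CPM in control and at 282, 267 and 256 CPM in knockout libraries. It rose by 0.48 (SE 0.0431, adjusted p = 1.22e-13), without overlap, and its share of Slit FPKM went from 88.5% ± 1.55 to 99.4% ± 0.143. Slit1 was at 0 counts in all control libraries and had 7 counts over the knockout libraries.

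The Robo receptors were low in both groups. Robo2, the highest of them by mean FPKM over all 6 libraries though below Robo3 in the knockout (0.0639 against 0.309 FPKM), stood at 3.02, 3.21 and 3.35 CPM in control and at 0.51, 0.403 and 0.892 CPM in knockout libraries. Its control libraries all lay above its knockout libraries (-2.31, SE 0.353, adjusted p = 7.92e-08), with 74 and 16 counts over the groups. Robo3 had 4 counts over the control and 43 over the knockout libraries (3.19, SE 0.572), so the size of its change is loosely fixed. Robo2 passed the filter through the control and Robo3 through the knockout libraries only. Robo1 was at 0 counts in all 6 libraries, which allows a level of up to 3 counts. That is 0.313 to 0.421 CPM per library, here scaled by library totals without TMM factors and with counting error only. Whether the authors' counting lost reads of Robo1, or of the low Nrp1, was not tested. Sema5b, Sema6d, Epha6, Epha8 and Epha10 were at 0 counts as well. The member with the fewest counts still included was Ntn5, at 1 count.

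Among the netrins, Ntn1 fell while Ntn3 and Ntn4 rose. Ntn1, the founding axon guidance netrin, stood at 16.6, 20.5 and 18.8 CPM in control and at 4.33, 5.24 and 5.45 CPM in knockout libraries. It fell 3.68-fold by the fitted change (-1.88, SE 0.145, adjusted p = 5.65e-18), without overlap. Ntn4, a netrin of basement membranes and the most abundant one per length, stood at 48.3, 43.3 and 49.9 CPM in control and at 52.5, 59.8 and 56.7 CPM in knockout libraries. It was higher by 0.26 (adjusted p = 9.38e-04), with the lowest knockout library just above the highest control library. Ntn3 rose from 7.61 ± 1.70 to 12.8 ± 0.0544 CPM (0.77, SE 0.146). Ntn1 held 13.4% ± 1.91 of netrin FPKM in control and 3.24% ± 0.251 in knockout libraries.

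Unc5b, a netrin receptor of vessel sprouts, stood at 551, 535 and 557 CPM in control and at 491, 468 and 470 CPM in knockout libraries. The groups did not overlap, but the change was small (-0.20, adjusted p = 5.37e-07) and its call was lost with library totals alone (-0.07, adjusted p = 0.071). It made up 99.6% ± 0.0522 and 99.4% ± 0.139 of Unc5 FPKM. Unc5a did not pass the test (0.61, adjusted p = 0.134) at 1.21 ± 0.156 and 1.83 ± 0.375 CPM. Unc5c and Unc5d had 2 to 8 counts per group and were not tested.

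**Figure D4:**
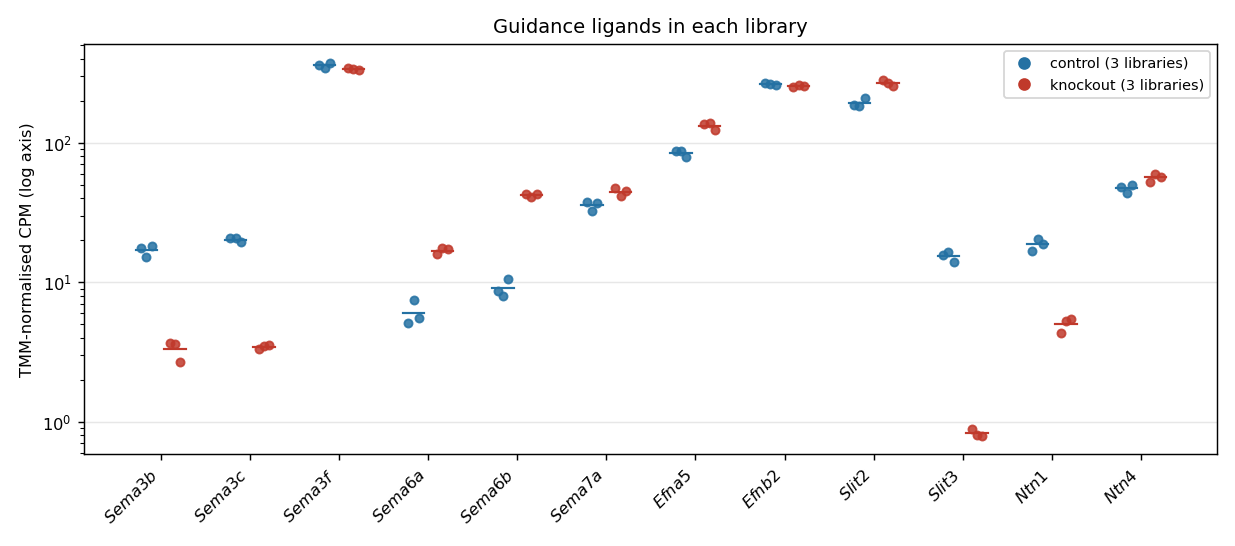
TMM-normalised CPM on a log axis for the named ligands, with 1 point per library and a bar at the mean of each group. Slit3 lies near 1 CPM and Sema3b and Sema3c near 3 CPM in knockout libraries, against 14.0 to 20.8 CPM in control, while Sema6a and Sema6b lie higher in the knockout.

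Set side by side, several ligands and their receptors moved the same way. Sema6a, Sema6b, Plxna2 and Plxna4 were all higher, and so were Sema3e with Plxnd1 and the ephrins Efna1 and Efna5 with Epha2 and Epha4. Slit3 and Robo2 were both lower, as were Efnb1, Ephb2, Ephb3 and Ephb6. Other pairs moved apart. Epha3 fell while Efna1 and Efna5 rose, and Ephb4 rose while Efnb1 fell. Sema3c and Sema3b fell while Nrp2 rose, Sema4d rose while Plxnb1 fell, and Slit2 rose while Robo2 fell. These are the separate calls given above, and no pair was tested as a pair. Slit3, Robo2 and Plxnb1 passed the filter on low counts through the control libraries only, and Sema4d through the knockout libraries only. The group levels of these genes had to differ, so the pairs that hold them rest on less.

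**Figure D5:**
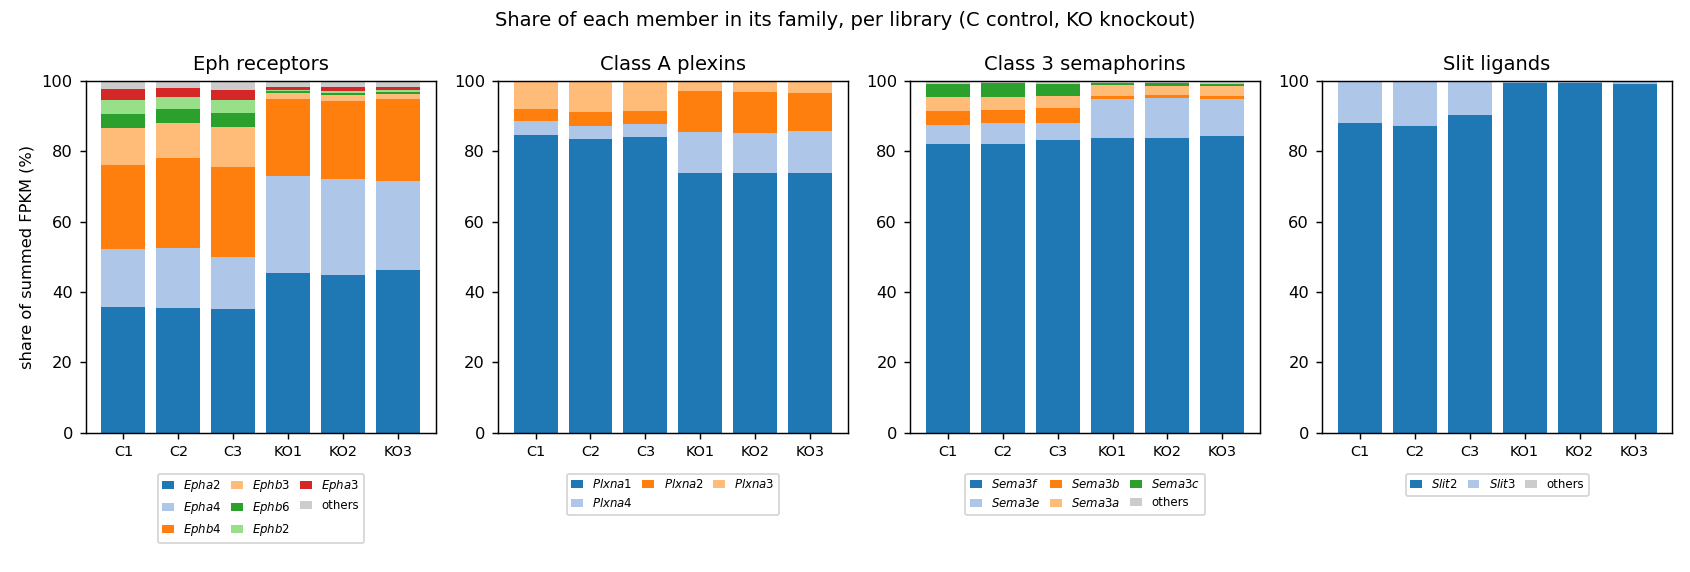
Share (%) of each member in the summed FPKM of its family, in each of the 6 libraries (C1 to C3 control, KO1 to KO3 knockout). Libraries of a group resemble each other, with EphA genes at 56.6% of Eph FPKM in control and 74.9% in knockout, and Slit3 nearly gone from the Slit sum in the knockout.

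Genes that work beside these cues were taken from 2 further lists. Of 10 tested co-receptors and other ligands 3 rose and 5 fell, around a median of -0.03 on the log2 scale, against 26.4% and 26.2% of all genes tested. Neogenin, Neo1, a receptor of netrins and of repulsive guidance molecules, fell from 284 ± 3.34 to 73.9 ± 1.61 CPM (-1.94, SE 0.0437, adjusted p = 2.72e-45). Robo4, the endothelial Robo gene, which also stood on the endothelial list, rose from 6.63 ± 0.806 to 26.2 ± 2.46 CPM (1.98). Of the Flrt genes, which bind Unc5 receptors, Flrt3 fell by 1.89 on the log2 scale and Flrt2 rose by 0.56. Flrt1, named here after its values were seen, was lower by more (-2.57, SE 0.359) at 78 counts over the control and 14 over the knockout libraries. Lrrc4c and Dscam were at 0 counts.

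Of 38 tested intracellular effectors 15 were higher and 13 lower (median -0.02), against 26.4% and 26.2% of all genes tested. Ablim1, an actin-binding protein acting downstream of netrin in worms, rose from 115 ± 5.15 to 286 ± 2.59 CPM (1.31, SE 0.0415). Arhgef15, a guanine nucleotide exchange factor of Eph receptors that is enriched in endothelium, rose from 21.5 ± 1.34 to 82.0 ± 4.59 CPM (1.93). Enah, an actin regulator of the Slit and netrin pathways, fell from 59.7 ± 1.87 to 17.7 ± 2.20 CPM (-1.74). Rnd1, a small GTPase that binds plexins, rose from 102 ± 6.26 to 196 ± 7.66 CPM (0.95).

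Sequence before the gene starts was described for the members in RefSeq's promoter table (build GRCm38.p6), which held 52 of the 61 members in 67 windows, since some genes have several starts. In the 250 bases before the start, AGGTCA, the core motif of many nuclear receptors to which NCOR1 is recruited, was found on either strand in 14.9% of these windows against 14% of all 32851 windows. TGANTCA, the AP-1 motif, was found in 4.48% against 6.75%, and TATAAA in 2.99% against 12.4%. The motifs were searched separately, so matches of different motifs may share bases. The windows were rich in CG, with a median of 16 CG pairs against 6 over all windows. The 10 members with AGGTCA were Epha2, Nrp1, Ntn4, Ntn5, Plxnb2, Plxnd1, Sema4b, Sema4d, Sema5a and Sema6b, which include higher, lower and uncalled genes.

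Windows are printed for the gene with the largest change in each direction among the named ligands and receptors for which no window holds an annotated UTR base. No falling ligand met this, and Sema6b has 2 starts. Capitals mark AGGTCA and TGANTCA on either strand, and a window without capitals holds neither. The windows lie at chr17:56140344-56140593 and chr17:56133853-56134102 for Sema6b, chr1:77515089-77515338 for Epha4 and chr4:136836013-136836262 for Ephb2, all on the minus strand. They held 20, 5, 14 and 20 CG pairs. A match is a description of these letters and not a site in use.
Sema6b, first start: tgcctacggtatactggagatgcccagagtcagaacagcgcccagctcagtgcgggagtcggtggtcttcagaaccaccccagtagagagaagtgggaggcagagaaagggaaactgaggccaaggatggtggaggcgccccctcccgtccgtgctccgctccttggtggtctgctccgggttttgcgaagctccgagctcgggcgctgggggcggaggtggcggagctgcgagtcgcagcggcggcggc
Sema6b, second start: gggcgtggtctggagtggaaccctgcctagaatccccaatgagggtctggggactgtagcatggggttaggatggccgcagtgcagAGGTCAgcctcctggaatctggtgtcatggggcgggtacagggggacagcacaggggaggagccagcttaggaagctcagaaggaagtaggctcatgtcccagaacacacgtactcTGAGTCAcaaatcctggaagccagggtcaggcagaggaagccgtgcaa
Epha4: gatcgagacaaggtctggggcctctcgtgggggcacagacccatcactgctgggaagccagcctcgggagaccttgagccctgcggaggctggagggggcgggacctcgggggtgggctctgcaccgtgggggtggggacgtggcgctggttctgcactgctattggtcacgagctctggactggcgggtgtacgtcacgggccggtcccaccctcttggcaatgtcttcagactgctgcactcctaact
Ephb2: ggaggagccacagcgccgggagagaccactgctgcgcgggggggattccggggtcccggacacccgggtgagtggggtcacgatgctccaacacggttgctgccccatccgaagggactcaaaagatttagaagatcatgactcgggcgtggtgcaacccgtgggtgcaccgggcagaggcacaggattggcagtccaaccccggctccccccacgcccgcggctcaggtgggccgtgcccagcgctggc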

How the data were processed

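RNA sequencing counts of 3 control and 3 knockout libraries were used as deposited by the authors: raw whole numbers, one row a gene symbol. The FPKM deposited by the authors equal count over library total and gene length (relative spread at most 1.05e-05 over 35 members). The aligner HISAT2 2.0 and the build mm9 come from the submitters' processing notes. Counter, annotation and strand use are not stated, so overlapping and antisense genes are uncertain. The members and lists were chosen with earlier results of these data known. Genes were filtered by edgeR's filterByExpr (minimum count 10), scaled by TMM and tested on the whole table in R 4.3.3 with edgeR 4.0.16 (quasi-likelihood, robust), two-sided, Benjamini-Hochberg threshold 0.05. The script was tested on simulated data. Named genes were called members of at least 2-fold with 5 CPM in the higher group, the member with the highest FPKM of each family, and up to 4 called genes of each further list. Alternatives were other scalings, no filter, DESeq2 1.42.0, limma 3.58.1 on log2(FPKM + pseudocount) with pseudocounts 1 and 0.1, a replicate block and leaving out each library. Library pairs within groups differed by more than sampling noise (chi-square per degree of freedom 1.38 to 1.84), so none was treated as a duplicate. Exon overlaps came from GENCODE annotation of another build (GRCm38). SE is the log2 fold change over the square root of F. The depth of 7125538 to 9579490 counts limits precision for low genes.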

Additional observations from a re-analysis of the deposited data

How the results depend on the processing

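Of the 42 calls among guidance genes, 32 kept their direction and their side of the threshold in every alternative that gave a value. The counts of 21 higher and 21 lower members were 21 and 21 with DESeq2 size factors and with the replicate number as a block, 22 and 16 with library totals alone, 22 and 22 without the filter, and 19 and 20 with the DESeq2 test. Leaving out each library gave 19 to 21 higher and 18 to 22 lower. By FPKM of at least 1 in 3 libraries, where fewer members are tested, 11 were lower with either pseudocount (6 ligands and 5 receptors), and without that filter 6 receptors were lower. Over all genes, 3512 were higher and 3492 lower in the main fit. The counts were 3537 and 3474 with DESeq2 size factors and 3509 and 3486 with the replicate block. They were 5299 and 2407 with library totals alone, 3715 and 3578 without the filter, and 2785 and 2639 with the DESeq2 test. Leaving out each library gave 3223 to 3381 higher and 3186 to 3342 lower. By FPKM with pseudocount 1, 0.1 and 1 without filter, 2014, 2000 and 2138 of all genes were lower. Lower co-receptors numbered 3 with library totals alone and 2, 2 and 3 in these FPKM fits, and lower effectors 7, 7 and 6. The sign turned with library totals alone and in the 3 FPKM fits for Sema3f (0.0445, 0.0445, 0.0449 and 0.0445), Efnb2 (0.0907, 0.08998, 0.0915 and 0.08998) and Plxnb2 (0.0238, 0.0253, 0.0256 and 0.0253); these alternatives scale by library totals. Whether replicate numbers pair the libraries is not settled. Deviations from group means correlated at 0.00398, 0.0159 and 0.0232 for equal numbers, and at -0.0239 to 0.00664 for unequal numbers, all weak. Knockout 1 correlated more with control 2 (0.00664) than with control 1, and every other library correlated best with its own number. Few counts limit Robo3, Plxnb1, Plxnc1, Sema4d and Sema5a, and the members not tested.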
